A study of Homo sapiens with 172 samples.

Results

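The nuclear lamina is a protein mesh under the inner nuclear membrane, and large parts of the genome, mostly poor in genes and little transcribed, touch it as lamina-associated domains. A domain is not at the lamina in every cell, so single-cell maps show how often each stretch of a chromosome is there and which stretches are there together. Described here are the lamina contacts of human chromosome 9 from its short-arm end to 133 Mb, in single KBM7 cells, a near-haploid human leukaemia line in which most chromosomes are present once. KBM7 carries the Philadelphia translocation between chromosomes 9 and 22, which breaks the ABL1 kinase gene, and the table therefore lists chromosome 9 as the first part of a joined chromosome 9:22. Chromosome 9 is also known for a large block of repeat-rich heterochromatin beside its centromere.

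The 172 labelled samples form 1 group, haploid cells of clone 5-5 with LaminB1 fused to Dam, a methyltransferase that marks adenines in DNA near the fusion protein. Methylation was induced for 15 h with 0.5 nM Shield1, and single cells were sorted from the smallest 2% that were positive for both Fucci cell cycle markers. There was 1 clone, no second group and no separate culture named, so no test between groups was possible, and standard deviations are over cells and not over replicates. Each of the 168 columns correlated best with the column whose sample number lay 86 away, so such pairs were taken as 1 cell, and averaging gave 84 cells, named here by the lower number.

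The region comprised 1330 bins of 100 kb with an end at or below 133000000 on 9:22, taken as hg19 chromosome 9 positions. Taking away 264 bins without a value and 28 with no read in any column left 1038 of the 26414 covered bins of the genome. The longest stretch without values, 47300001 to 66200000, lies where the centromere and the heterochromatin block are known to be, and it separates 406 covered p arm bins from 632 covered q arm bins. A bin was called in contact in a cell at an observed over expected ratio of at least 1, and contact frequency is the percent of the 84 cells in contact. The deeper column of a cell held between 7134 and 418937 reads (median 63700), of which between 291 and 17807 fell on the chromosome 9 part (median 3168). Cells 63, 69, 79 and 80 stood apart, with under 5% of the expected reads on 2, 10, 11 and 3 sides of chromosomes in the lower-numbered column. In the higher-numbered column this held for cell 69 alone among them, on 9 sides. Results are given below without cells 63, 69 and 79, and leaving out cell 80 too gave a chromosome 9 share of 31.1% ± 9.87 and a difference of the arms of 12.6 ± 11.7 points (n = 80). Genes were not assigned to bins, since gene positions of the files' build were not used here. By count only, a GRCh38.p14 gene table lists 778 coding genes for the whole of chromosome 9, against 734 for chromosome 10, 1301 for chromosome 11, 1024 for chromosome 12 and 848 for chromosome X.

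A cell had 31.2% ± 10.6 (SD, n = 84) of the chromosome 9 bins in contact, against 27.6% ± 6.55 of the bins in the rest of the genome. The difference was 3.56 ± 8.46 percentage points, with the higher share on chromosome 9 in 55 of the 84 cells. The mean difference was smaller than its spread over cells, and was 3.40 ± 7.84 points without cells 63, 69 and 79, described above. Among the 22 chromosomes with values, chromosome 9 ranked eighth. Set beside chromosomes of similar length, its share was above that of chromosome 10 (24.2% ± 7.70) in 67 cells and of chromosome 12 (25.4% ± 9.88) in 63 cells. It was above that of chromosome 11 (30.3% ± 10.1) in 48 cells and of chromosome X (37.2% ± 11.2) in 21 cells. Mean differences were 6.96, 0.850, 5.75 and -5.97 points from chromosomes 10, 11, 12 and X, and 6.45, 1.29, 5.05 and -6.02 points without cells 63, 69 and 79. Each was smaller than its SD over cells (8.90 to 11.5). On the same joined chromosome, the bins beyond 134 Mb, 272 in number, were in contact at 4.18% ± 4.12, and the chromosome 9 part was higher than them in all 84 cells.

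The short arm carried more contact than the long arm. On the p arm 38.7% ± 14.0 of bins were in contact, against 26.3% ± 10.5 on the q arm (SD, n = 84). The difference was 12.4 ± 11.6 points, and the p arm was higher in 74 of 84 cells. With its longest often-contacted stretch left out (7 Mb, beginning at 7.3 Mb), the p arm had 32.6% ± 12.5, which is 6.25 ± 10.5 points above the q arm and higher in 62 cells. The p arm thus kept a higher mean share without that stretch, with a difference below its spread over cells. The widest gap in favour of the p arm was in cell 36, with 59.6% against 18.4%, and the widest in favour of the q arm was in cell 49, with 19.2% on the p arm against 34.5% on the q arm.

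**Figure D1:**
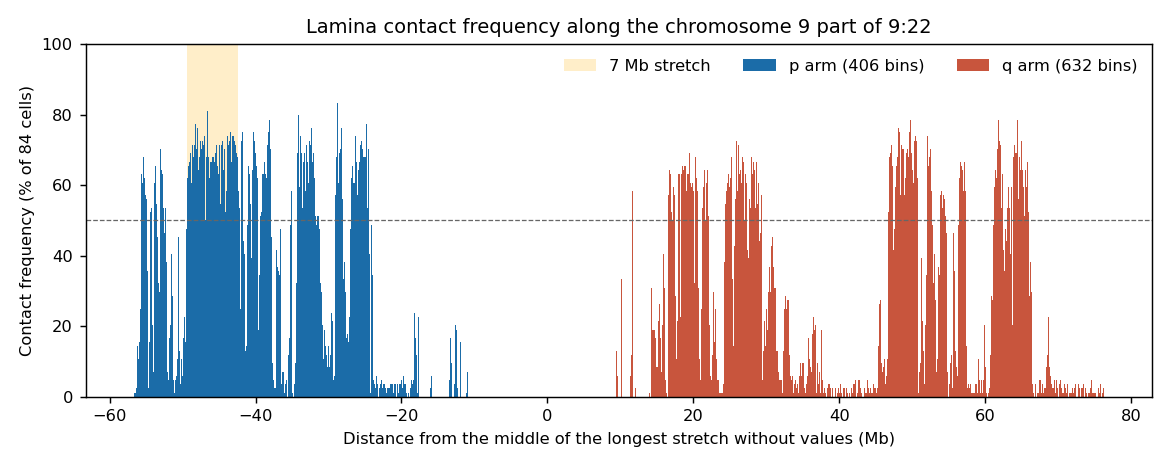
Contact frequency (percent of 84 cells, vertical axis) of each covered 100 kb bin against its distance in Mb from the middle of the longest stretch without values. The p arm (blue, 406 bins) is on the left and the q arm (red, 632 bins) on the right; the shaded band is the 7 Mb stretch, whose 70 bins average 68.3%, and the dashed line marks 50%.

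The bins fell into frequently and rarely contacted blocks with few bins at the very top. Of the chromosome 9 bins, 377 (36.3%) were in contact in at least 50% of cells, against 30.7% of all covered bins of the genome. At the other end, 336 (32.4%) were in contact in under 5% of cells, against 36.7% of all covered bins. Bins under 20% numbered 497 (47.9%, against 52.3% of all covered bins). The shares differed between the arms, with 46.6% of p arm bins and 29.7% of q arm bins at 50% or more, and 21.4% of p arm bins and 39.4% of q arm bins under 5%. The rarely contacted class was thus a larger part of the q arm, and the frequently contacted class a larger part of the p arm.

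Only 2 bins reached 80%, both on the p arm, which is 0.193% of the chromosome 9 bins against 0.303% of all covered bins. The bin from 27900001 to 28000000 was in contact in 70 of 84 cells, or 83.3% (exact Clopper-Pearson 95% interval 73.6 to 90.6%), and the bin from 10100001 to 10200000 in 68 cells, or 81.0% (70.9 to 88.7%). The next were 8400001 to 8500000, 22600001 to 22700000 and 107200001 to 107300000, each in 67 cells, or 79.8% (69.6 to 87.7%). These 5 intervals overlap, so the order of the bins is not resolved. They cover counting error only and do not allow for the choice of the highest bins.

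Along the chromosome, windows of 10 Mb differed by more than 10-fold in mean frequency. The highest was 10000001 to 20000000, with 57.2% ± 22.0 (SD over cells, n = 84) and 77 of its 100 bins at 50% or more. On the p arm the first window, 1 to 10000000, averaged 40.6% ± 18.5, 20000001 to 30000000 averaged 38.3% ± 16.9, and 30000001 to 40000000 averaged 22.0% ± 9.70. On the q arm, 70000001 to 80000000, 80000001 to 90000000 and 100000001 to 110000000 were close to each other, at 37.3% ± 19.9, 37.9% ± 20.4 and 38.0% ± 15.5. Between them lay 90000001 to 100000000 with 4.27% ± 5.65, where no bin reached 50% and 76 of 99 covered bins were under 5%. The long arm was therefore made of 2 contacted blocks with a nearly free one between them, followed by a second free block before the junction.

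The bins on each side of the longest stretch without values had low mean frequencies. The 18 covered bins from 39 Mb up to it averaged 11.2%, with a highest value of 34.5%, and the 13 covered bins from it to 71 Mb averaged 13.0%, with a highest value of 58.3%. Few bins around the heterochromatin block carry a value, so most of this territory is not described by these numbers. The 2 Mb before 133 Mb averaged 1.67%, whereas the first 2 Mb of the p arm averaged 34.2%, with bins from 1.19 to 70.2%.

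In all, 40 stretches of neighbouring bins at 50% or more covered 37.7 Mb, 18.9 Mb of it in 16 stretches of the p arm and 18.8 Mb in 24 stretches of the q arm. The longest began at 7.3 Mb on the p arm and spanned 7 Mb, and the next longest was 2.60 Mb. On the p arm it was followed by 22500001 to 25100000 (mean frequency 67.1%), 29800001 to 32300000 (65.7%) and 17400001 to 18900000 (65.2%). On the q arm the longest were 104400001 to 106800000 (68.7%), 120600001 to 122700000 (63.8%), 82500001 to 84100000 (63.1%) and 84400001 to 85800000 (60.8%). They were picked out by their frequency, so the means describe them and test nothing. These 8 stretches differed in length, between 1.40 and 7 Mb, but had means between 60.8 and 68.7%, a range smaller than the spread of any of them over cells (SD 26.2 to 33.8). Other chromosomes had shorter longest stretches at this limit, led by chromosome 4 with 5.90 Mb and chromosome 11 with 5.30 Mb. The 7 Mb length rests on the bin from 9800001 to 9900000, which was in contact in 42 cells, or 50.0%, exactly the limit. Any lower frequency there would have split the stretch, and both parts would be shorter than 5.30 Mb. The lead in length over the other chromosomes thus depends on this bin.

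Frequencies varied little along the 7 Mb stretch, in part by construction, since each of its bins had to be at 50% or more. Its 70 bins had a mean frequency of 68.3% ± 6.04 (SD over bins) and ranged from 50.0 to 81.0%, with 63 bins between 60 and 80%. On the side of the chromosome end the border was narrow. The first bin of the stretch was at 66.7% and the bin before it at 47.6%, and the 1 Mb before the stretch averaged 15.5%. On the centromere side the last bin was at 67.9% and the bin after it at 27.4%, but the following 3 Mb averaged 51.7%, against 18.1% in the 3 Mb before the stretch. Contacts there also moved with the stretch: over the 84 cells the share of the stretch correlated with that of the 3 Mb after it at r = 0.68, or 0.55 once the contact share of the rest of the genome was regressed out. For the 3 Mb before it the values were 0.42 and 0.24.

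**Figure D2:**
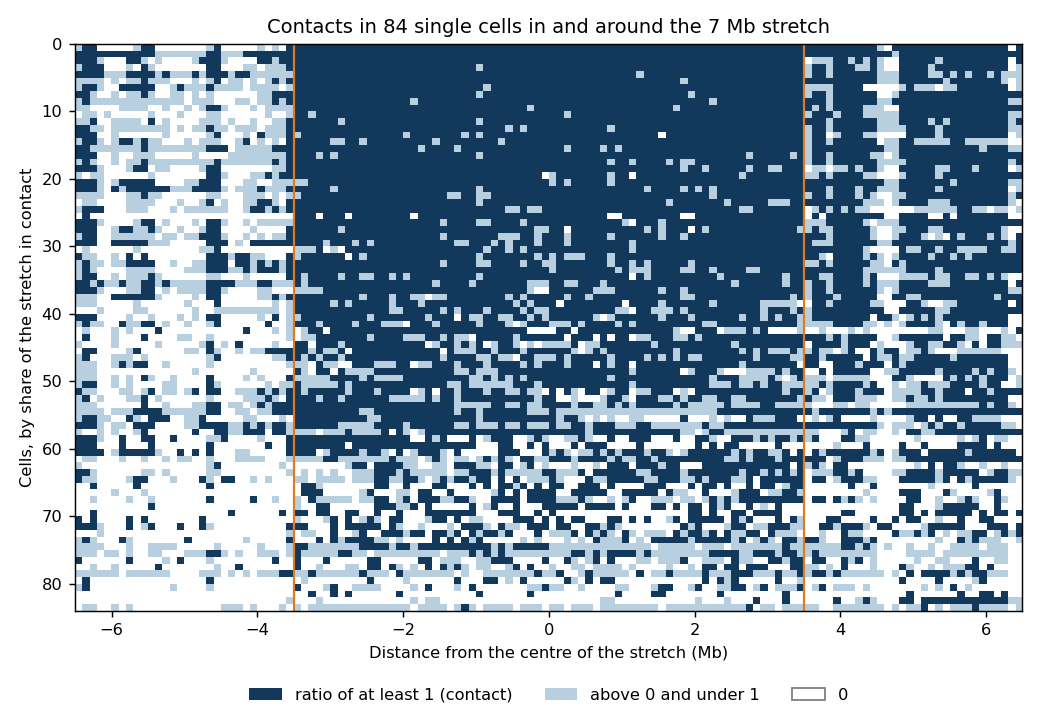
Each row is 1 of 84 cells and each column a 100 kb bin, by distance in Mb from the centre of the 7 Mb stretch (orange lines mark its borders); dark blue is a ratio of at least 1, light blue a ratio above 0 and under 1, white a ratio of 0. Cells are ordered by the share of the stretch in contact, from 100% at the top to 2.86% at the bottom, and 27 cells have at least 90% of it in contact.

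Within single cells the stretch ranged from full to almost no contact. Cells had 68.3% ± 26.2 of it in contact (SD, n = 84), with a median of 70.7% and quartiles of 47.1 and 91.8%. All 70 bins were in contact in 3 cells (27, 69 and 84), at least 90% in 27 cells and at least 80% in 38 cells, which is 45.2% of cells (exact 95% interval 34.3 to 56.5%). At the other end, 23 cells had under 50% and 5 cells under 20% in contact. The values formed a broad distribution with its fullest class at 90 to 100%, and no second class at the low end. Cells 27, 69 and 84 held 330, 210 and 274% of the expected reads in the stretch in the lower-numbered column. On the remaining p arm they held 250, 194 and 176%, so reads were high on the whole arm. The cause was not tested.

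The stretch was picked out by its frequency in these same cells, so a higher mean there follows from the choice and tests nothing. It was more contacted than the remaining chromosome 9 bins in 82 of 84 cells, with 68.3% in the stretch against 28.5% outside it. The mean difference was 39.8 ± 21.5 points. The exceptions were cell 25, with 2.86% in the stretch against 24.0% outside it, and cell 37, with 20.0% against 26.8%. In cell 25 the lower-numbered column held 7 reads in the stretch, against 122 expected from its total and the median share of the stretch over cells, and the higher-numbered column 11, with 161 expected. The remaining p arm of cell 25 had 384 reads in the lower-numbered column, against 298 expected, so reads were low in the stretch and above expectation on the rest of the arm. In cell 37 the columns held 27.6 and 35.7% of the expected reads in the stretch and 63.9 and 68.3% on the remaining p arm, so reads were low on the whole arm and lower still in the stretch. Cell 79 also had 2.86% of the stretch in contact, but 0.723% of the bins outside it.

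Read depth moved with these values. Of the 35 cells with at least 100000 reads, 27 had at least 80% of the stretch in contact, against 11 of the 49 cells with fewer reads, and the mean frequency of the stretch was 83.1% and 57.7% in the 2 sets. The share of the stretch correlated with the log10 of reads at r = 0.63 and that of the whole chromosome 9 part at 0.52, against 0.77 for the rest of the genome (n = 84). Inside the stretch 13.2% of values were 0, against 49.1% on the rest of chromosome 9. Where a cell has few reads, a bin at 0 may be a contact that was not sampled, and these cases cannot be told apart. Calls can also rest on very few reads. The lowest deeper column held 7134 reads over 26414 covered bins, so a single read can bring a bin to a ratio of 1. How many called contacts in shallow cells rest on single reads was not tested.

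Contact of the stretch varied over cells together with that of the rest of the p arm. Shares of its left and right parts, of 35 bins each, correlated at r = 0.76, and at 0.67 after the rest of the genome was regressed out. For the stretch against the other p arm bins the values were 0.73 and 0.57, and against the q arm 0.44 and 0.27 (n = 84 cells, all read from the same libraries). Inside the stretch the longest unbroken run of contacts had a median of 1.65 Mb, 61 cells had an unbroken run of at least 1 Mb and 14 cells one over at least 0.5 of its length. Cells broke the stretch into a median of 9.50 runs.

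The free stretches of chromosome 9 lay mostly on the q arm. The longest under 5% were 125700001 to 133000000, which runs up to the limit set before the junction and spans 7.3 Mb with a mean of 1.84%, and 97200001 to 102000000, with 4.80 Mb and 1.81%. This second stretch is separated by a single bin without reads from 94400001 to 97100000, with 2.70 Mb and 1.54%. Further free stretches were 33600001 to 35800000, 35900001 to 37000000 and 37100001 to 38400000 on the p arm and 123100001 to 125100000 and 114300001 to 115700000 on the q arm, with means from 2.30 to 2.65%. In total 46 bins were in contact in no cell, which is 4.43% of the chromosome 9 bins against 6.19% of all covered bins, and a count of 0 of 84 cells allows a frequency of up to 3.57% when taken as 3 cells, or 4.30% by the exact 95% interval. Of these, 39 were on the q arm (6.17% of its bins) and 7 on the p arm (1.72%). The q arm was thus close to the share of all covered bins, and the p arm below it.

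Contacts in free stretches were few and unevenly spread over cells. The 73 bins from 125700001 to 133000000 held 113 contacts in 36 cells, and the remaining 48 cells had none. Cell 48 supplied 17 of them, cell 54 supplied 10 and cell 72 supplied 9. Over all 336 chromosome 9 bins under 5%, 15 cells had no contact and the median over cells was 4 contacts. Cell 48 had 94, cell 54 had 47 and cell 72 had 44, and these 3 cells held 28.8% of the 643 contacts. Without cells 48, 54 and 56, the first 2 of which are among these cells, the mean frequency of the 7.3 Mb stretch was 1.40%. Cell 72 stayed in, so this is not the value without the 3 cells that supplied most contacts. The deeper columns of cells 48, 54 and 72 held 264836, 14065 and 43935 reads.

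Contacts formed runs of neighbouring bins of very unequal length. Among 7668 runs in the 84 cells, 48.9% were single bins, which held 13.8% of contacts, whereas 42.8% of contacts were in runs of 10 or more bins. A cell had 91.3 ± 31.6 runs with a mean length of 3.87 ± 1.80 bins (SD, n = 84). Mean run length differed with read depth. It was 5.24 ± 1.54 bins in the 35 cells of at least 100000 reads. In cells 1 to 29, which had fewer reads, it was 3.14 ± 1.31, against 4.25 ± 1.91 in cells 30 to 86. Runs averaged 4.21 ± 2.36 bins on the p arm and 3.60 ± 1.69 on the q arm, and 3.50 ± 1.70 on the p arm without the 7 Mb stretch; without it the p arm mean was below that of the q arm. Means on chromosomes of similar length were 3.51 ± 1.46 (chromosome 10), 3.91 ± 1.86 (11), 3.75 ± 1.87 (12) and 3.71 ± 1.67 (X), all within 1 SD of chromosome 9.

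The 5 longest runs overlapped the stretch. The stretch was picked out by its frequency in these same cells, so long runs there follow in part from the choice. The counts of runs below therefore describe it and test nothing. It holds 70 of the 1038 chromosome 9 bins, and the q arm holds 632. Cell 69 had a run of 8.90 Mb from 6600001 to 15500000, cell 27 one of 8.10 Mb from 7200001 to 15300000 and cell 84 one of 7.20 Mb from 7100001 to the end of the stretch. Cells 69, 27 and 84 are those given above with high reads on the whole p arm. Cells 59 and 85 each had a run of 5.40 Mb with the same borders, 7200001 and 12600000. Of the 18 runs of at least 4 Mb, 12 overlapped the stretch and 4 lay on the q arm, and the 4 q arm runs all ended at 107500000. Of the 166 runs of at least 2 Mb, 52 overlapped the stretch and 61 lay on the q arm. The longest chromosome 9 run of a cell overlapped the stretch in 36 cells and lay on the q arm in 34.

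Some long runs shared borders between cells. This follows in part from the steps in contact frequency along the chromosome in these same cells. How often borders would be shared from the frequencies alone was not tested. Runs of at least 2 Mb, found in 56 cells, had 83 different starts and 88 different ends. The most frequent starts were 7200001 and 22500001, with 11 runs each, and the most frequent ends were 32400000 with 10 runs, and 107500000 and the end of the stretch with 8 each. At 7200001 the first bin inside had a frequency of 47.6% and the bin before it 15.5%. At 32400000 the last bin inside had 40.5% and the next bin 11.9%. At 107500000 the last bin inside had a frequency of 61.9% and the next bin 1.19%. At 22500001 the first bin had 69.0% and the bin before it 19.0%. At 9900001, where 8 runs began, the step was small, 61.9% inside and 50.0% outside.

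In single cells the arms were contacted unequally but not independently. Contact shares of the p and q arms correlated over the 84 cells at Pearson r = 0.58 (Spearman's rho = 0.56), and at r = 0.45 after the share of the rest of the genome was regressed out. Without cells 63, 69 and 79 the values were 0.52 and 0.37. The arms share library and depth. The same correlation between the sides of the longest stretch without values averaged 0.590 ± 0.100 over 18 other chromosomes (range 0.411 to 0.746), so chromosome 9 lay within their spread.

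The highest chromosome 9 shares were 53.1% in cell 69, 50.6% in cell 28 and 49.8% in cell 6, and the lowest were 0.867% in cell 79, 11.2% in cell 55 and 11.8% in cell 57. Cell 69, which had under 5% of the expected reads on 10 sides of chromosomes, was also the highest cell on chromosomes 3, 5, 11, 13 and X. Its high share was thus not particular to chromosome 9. Cell 79 had 1.31% of the reads of its deeper column on the chromosome, against a median of 4.36% over cells, and its lower-numbered column had 5.61% of the expected reads on the p arm and 3.68% on the q arm, against 31.4 and 27.5% in its higher-numbered column. Cells 55 and 57 had 19201 and 17503 reads in the deeper column and were low in the rest of the genome too, with 18.5 and 15.0% in contact. Cell 27 was the opposite case, with 10.9% of its reads on chromosome 9 and 46.0% in contact, although its share over the rest of the genome was 23.4%.

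**Figure D3:**
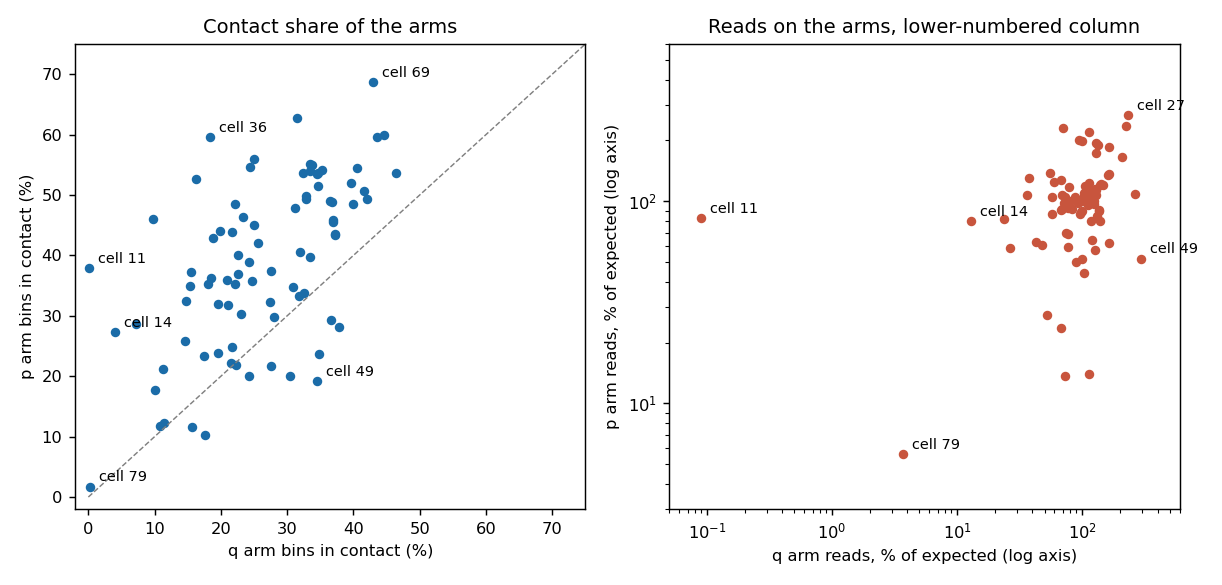
Left, percent of p arm bins (vertical axis) and q arm bins (horizontal axis) in contact in each of 84 cells, with the line of equality dashed; most points lie above it (74 cells). Right, reads on the p arm and q arm as percent of those expected from the cell's total, in the lower-numbered column on log axes; cell 11 has 82.4% of the expected p arm reads and 0.0901% of the expected q arm reads.

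In cell 11 the whole long arm was almost without reads. Its lower-numbered column held 1 read on the q arm, where 1110 were expected from its total and the median q arm share over cells, while the p arm had 795 reads against 965 expected. The higher-numbered column held 33 q arm reads (1383 expected) and 1011 p arm reads (1234 expected). Beyond 134 Mb, on the part of 9:22 past the junction, the columns held 0 and 2 reads, with 62.5 and 78.3 expected. Of the p arm bins of cell 11, 37.9% were in contact, 77.1% in the 7 Mb stretch, but only 0.158% of the q arm bins. Cell 14 had 67 q arm reads against 522 expected and 362 p arm reads against 454 expected in the lower-numbered column, with 3.96% of its q arm in contact. Its part beyond 134 Mb was not low in the same way, with 28 reads against 29.4 expected there and 30 against 39.5 in the higher-numbered column.

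Over all chromosomes with at least 100 covered bins on each side of the longest stretch without values, 2378 combinations of a cell and a side had at least 300 expected reads in the lower-numbered column, and 29 were under 5% of them. In 18 of the 29 the other side was under 5% too. In 7, among them the q arm of cell 11, the other side had 50% or more of the expected reads. In the higher-numbered column 10 of 2567 combinations were under 5%, of which 9 were in cell 69 and 1 was the q arm of cell 11, the one case with 50% or more on the other side. The cause was not tested. Without cells 11, 14 and 79, which were chosen after their values were seen, the chromosome 9 share was 32.0% ± 9.83 and the difference of the arms 12.1 ± 11.4 points (n = 81).

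Contacts of chromosome 9 bins varied together over cells, and less so with distance. Among its 539 bins of 20 to 80% frequency (51.9%, against 47.4% of all covered bins), correlations over cells were taken after a linear fit on each cell's overall contact share. Adjacent bins had a mean r of 0.425, pairs 1.1 to 2 Mb apart 0.235, pairs 5.1 to 10 Mb apart 0.130 and pairs 20.1 to 50 Mb apart 0.0892. The 20 other chromosomes with such pairs averaged 0.435 ± 0.0425 for adjacent bins (SD over chromosomes) and 0.257 ± 0.0588 at 1.1 to 2 Mb, so chromosome 9 lay within 1 SD of them.

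Pairs on the q arm had higher mean correlations than pairs on the p arm at each distance at which both had pairs. For adjacent bins the means were 0.392 on the p arm and 0.454 on the q arm, at 1.1 to 2 Mb 0.211 and 0.258, and at 20.1 to 50 Mb 0.0671 and 0.108. Pairs on different arms had 0.0412 at 20.1 to 50 Mb, 0.0563 at 50.1 to 100 Mb and 0.0668 beyond 100 Mb. The last value was above the mean of 11 other chromosomes with pairs beyond 100 Mb, 0.0335 ± 0.0175, whose highest was 0.0667. Bins are not independent and all come from the same cells, so these are descriptions. The q arm values include cell 11, whose q arm was almost empty. Values for different arms also include cell 79, which had 0.867% of the chromosome 9 bins in contact. Without cells 11, 14 and 79 the adjacent-bin value over both arms was 0.415. Neither the arms singly nor the pairs on different arms were recomputed without them.

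**Figure D4:**
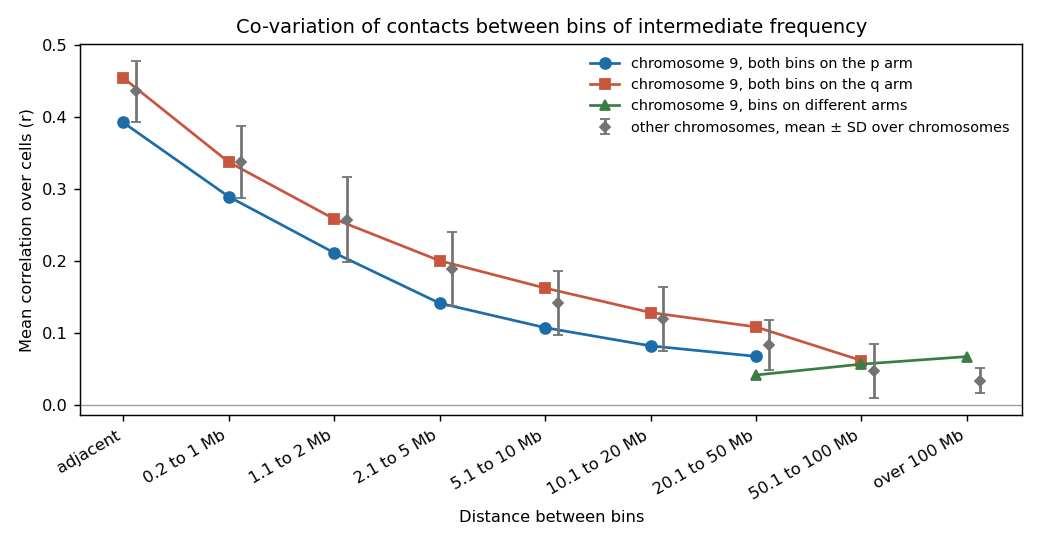
Mean correlation over 84 cells between pairs of bins of 20 to 80% frequency, by distance class, for chromosome 9 pairs on the p arm (blue circles), on the q arm (red squares) and on different arms (green triangles); grey diamonds are means ± SD over the other chromosomes. The q arm runs above the p arm, 0.454 and 0.392 for adjacent bins, and pairs on different arms are at 0.0668 beyond 100 Mb.

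The 8 longest stretches at 50% or more also varied together as whole units. All 28 pairs of stretches had a positive correlation after the rest of the genome was regressed out, with a mean of 0.334 and a range from 0.0529 to 0.711. The 12 pairs on the same arm averaged 0.452 and the 16 pairs on different arms 0.244. The highest belonged to the neighbours 82500001 to 84100000 and 84400001 to 85800000, which are 0.3 Mb apart. Among q arm stretches, the 7 Mb stretch had its highest value with 104400001 to 106800000 (0.424) and its lowest with 84400001 to 85800000 (0.135). Without cells 63, 69 and 79 the pair of 29800001 to 32300000 and 84400001 to 85800000 was at -0.00583, and the means were 0.417 on the same arm and 0.194 on different arms. All these values include cells 11 and 14, with 0.158 and 3.96% of q arm bins in contact against 37.9 and 27.3% of p arm bins. The pairs of stretches were not recomputed without cells 11 and 14. How far these cells add to the contrast between same-arm and different-arm pairs was not tested. At least 80% of the bins were in contact in all 8 stretches in 5 cells and in none of them in 13 cells, and the other cells had between 1 and 7 such stretches.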

How the data were processed

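DamID reads were measured in single KBM7 cells. Per the submitters' processing notes, cutadapt and Bowtie2 2.1.0 with hg19 were used; duplicate handling and how the expectation was made are not stated there. The deposited values are the authors' ratio of observed over expected reads per 100 kb bin, in 168 columns; 4 labelled samples are not analysed here. Paired columns were averaged. Whole reads were recovered from the steps of the ratios, with 100% of the non-zero values whole within 0.02 (recovery tested on simulated data). They served for depth only. Contact was a ratio of at least 1. Stretches and runs end at bins without values. No p-value is given, because the cells come from 1 group and do not replicate a condition. PCR reads carry no molecular identifiers, so intervals cover counting error only. Expected reads of a region are the column's total times the median share of the region over cells. The regions named follow a rule (the 8 longest stretches of each class, the 5 highest bins, the 5 longest runs and the 3 extreme cells at each end, with arms and 10 Mb windows); cells 11, 14, 25, 27, 36, 37, 49 and 80 and shared run borders were chosen after their values were seen. The members and lists were chosen with earlier results of these data known. Alternatives were other cutoffs, scaling, single columns, subsets of cells and read minimums. Python 3.11.15, numpy 2.4.6, pandas 2.3.3, scipy 1.17.1 and matplotlib 3.10.9 were used.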

Additional observations from a re-analysis of the deposited data

How the results depend on the processing

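Of 110 values under 11 other settings, 99 stayed within a set limit of the reported value. So did 27 of 30 under the 3 settings added after seeing the data (without cells 11, 14 and 79, without cells 63, 69, 79 and 80, and deep cells alone). The limit was 1 SD over cells for shares, differences and run length, and 1 SD over other chromosomes for correlations. It was 1.5-fold for classes of bins, and the exact interval of a count of cells for the 7 Mb stretch. The SD over cells is wide, so staying within it does not show that a value is stable. No difference between regions changed sign. At a cutoff of 2, by construction, the chromosome 9 share was 18.8% and bins at 50% or more made up 7.23%; at 0.5, bins under 5% made up 16.1%. The frequency of the 7 Mb stretch was 79.4, 56.5 and 45.4% at cutoffs of 0.5, 1.5 and 2, and the cells with at least 80% of it in contact were 59.5, 20.2 and 9.52%. In the 35 cells of at least 100000 reads these were 83.1 and 77.1%, and adjacent bins correlated at 0.506. In cells 1 to 29 (median 35922 reads, against 124072 in cells 30 to 86) 27.6% of cells had 80% of the stretch in contact and adjacent bins correlated at 0.366; the cause was not tested. The p arm stayed above the q arm in every alternative run (7.79 to 17.3 points). Shallow cells limit the calls. No paired analysis was possible because the 1 group has no other group to pair with; region differences were taken within each cell.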
